A study of Homo sapiens with 2 samples.

Results

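A set of 10 genes was followed here in BE(2)-C, an established human neuroblastoma cell line with amplified MYCN: the transcription factor genes PRRX1, SNAI2, TWIST1, ZEB1, ZEB2, SOX9, FOSL1 and FOSL2, and the surface receptor genes PDGFRB and CD44. They were chosen by name as regulators and markers of the mesenchymal state of neuroblastoma, with earlier results of these data known. All 10 of the 10 listed symbols were found among the 16005 genes measured. Wild-type cells were kept for 7 days in EMEM/F12, a classical culture medium, or in HPLM, a medium formulated to resemble human plasma. Fetal bovine serum at 10% and penicillin-streptomycin at 1% were in both media. Each medium is 1 sample in the labels, with polyadenylated RNA read in 3 libraries. BE(2)-C is a single clonal line, so the values describe that clone. No label says whether the libraries of a medium came from separate cultures, so p-values measure only the spread between libraries, which may be technical.

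Neuroblastoma cells can interconvert between an adrenergic and a mesenchymal state. Adrenergic cells resemble sympathetic neuroblasts and depend on factors such as HAND2 and GATA3. Mesenchymal cells resemble neural crest or fibroblast-like precursors, are motile, and carry PRRX1, AP-1 factors of the FOS and JUN families, and the YAP and TAZ coactivators. SNAI2, TWIST1, ZEB1 and ZEB2 are the E-box binding factors of epithelial-mesenchymal transition, which in the embryo releases neural crest cells from the neural tube. SOX9 acts in early neural crest and in cartilage, PDGFRB encodes a receptor tyrosine kinase of mesenchymal and mural cells, and CD44 encodes the main receptor for hyaluronan.

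Promoter sequences are shown for the member that rose most, the member that fell most, PRRX1 and CD44, which were high in 1 EMEM/F12 library, and ZEB1, at its start with the most E-boxes among its own RefSeq starts. They run 5′ to 3′ on the gene's own strand from 250 bases before to 50 bases after a RefSeq transcript start, on build GRCh38.p14. Capitals mark matches on either strand to the E-box CACCTG that SNAI and ZEB factors bind, the MYC E-box CACGTG, the AP-1 element TGACTCA, the TEAD element GGAATG and the TATA box TATAAA, none of which overlap here. The FOSL2 promoter lies at chr2:28392608-28392907 on the plus strand, PDGFRB at chr5:150155796-150156095 on the minus strand, PRRX1 at chr1:170663881-170664180 on the plus strand, CD44 at chr11:35138921-35139220 on the plus strand, and 1 of 7 RefSeq starts of ZEB1 at chr10:31318966-31319265 on the plus strand.
FOSL2: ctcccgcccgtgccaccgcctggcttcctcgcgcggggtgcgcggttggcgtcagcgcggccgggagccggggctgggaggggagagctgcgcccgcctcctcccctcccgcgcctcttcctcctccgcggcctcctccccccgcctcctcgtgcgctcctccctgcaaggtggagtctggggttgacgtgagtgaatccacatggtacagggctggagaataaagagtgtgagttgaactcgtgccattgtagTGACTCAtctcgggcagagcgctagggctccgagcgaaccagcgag
PDGFRB: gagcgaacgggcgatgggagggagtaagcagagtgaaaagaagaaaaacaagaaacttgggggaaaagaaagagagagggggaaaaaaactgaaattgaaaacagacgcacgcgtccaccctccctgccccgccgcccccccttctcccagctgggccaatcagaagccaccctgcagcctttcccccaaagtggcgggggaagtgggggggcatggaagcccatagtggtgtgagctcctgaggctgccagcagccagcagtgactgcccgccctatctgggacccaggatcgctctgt
PRRX1: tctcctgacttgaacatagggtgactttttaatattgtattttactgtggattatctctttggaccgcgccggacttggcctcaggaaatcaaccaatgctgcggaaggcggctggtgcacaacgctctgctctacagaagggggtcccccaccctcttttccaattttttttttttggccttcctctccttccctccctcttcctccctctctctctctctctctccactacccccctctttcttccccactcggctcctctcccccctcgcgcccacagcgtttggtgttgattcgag
CD44: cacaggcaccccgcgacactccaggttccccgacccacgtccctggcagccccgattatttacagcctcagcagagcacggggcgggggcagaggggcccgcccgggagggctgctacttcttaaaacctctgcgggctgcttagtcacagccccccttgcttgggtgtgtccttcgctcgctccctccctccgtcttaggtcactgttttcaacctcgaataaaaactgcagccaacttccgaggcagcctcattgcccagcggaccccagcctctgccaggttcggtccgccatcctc
ZEB1: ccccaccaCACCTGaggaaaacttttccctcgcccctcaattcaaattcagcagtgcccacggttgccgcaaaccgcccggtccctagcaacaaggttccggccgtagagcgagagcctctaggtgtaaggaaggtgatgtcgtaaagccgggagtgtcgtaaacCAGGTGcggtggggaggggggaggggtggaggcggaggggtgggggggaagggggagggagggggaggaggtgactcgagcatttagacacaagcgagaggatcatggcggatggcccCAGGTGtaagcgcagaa
The FOSL2 promoter holds 1 AP-1 element, which begins 5 bases after the start, and 4.95% of the 35116 RefSeq promoters of 300 bases hold one. This ZEB1 promoter holds 3 CACCTG E-boxes, which begin at -242, -85 and 34 from the start, and 20.6% of all promoters hold at least 1. It was picked from 7 ZEB1 starts for this motif, so that share of unselected promoters is not a background for it. None of these 5 motifs lies in the windows of PDGFRB, PRRX1 or CD44, or in that of ZEB2 (chr2:144520070-144520369, minus strand). These are letter matches only and show no binding. Entries for 6 of the members were used, and TWIST1, SOX9, FOSL1 and SNAI2 are named only.

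Levels below are normalised reads, which the authors made by dividing reads by 1 factor per library. In these values 1 library stands apart and touches several results. EMEM/F12 library 3 differed from libraries 1 and 2 of the same medium in some members and not in others. It lay at least 2-fold above their mean for 2 of the 10 members, PRRX1 and FOSL1, beside 3.01% of the 15989 genes whose mean reached 10 normalised reads. CD44 followed at 1.90-fold, while TWIST1 stood at 0.784 of their mean, PDGFRB at 0.919 and SOX9 at 0.927. Reads per library ranged from 17504237 to 21676080, and library 3 with 18904947 lay inside that range. Results that rest on library 3 are given with and without it. It was set apart with its values known, and without it EMEM/F12 keeps only libraries 1 and 2. For PRRX1, FOSL1 and CD44, which were high in it, leaving it out favours a higher HPLM ratio. Their p-values without it are therefore not an independent test.

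In HPLM the members split. FOSL2, ZEB2, SNAI2 and ZEB1 rose, PDGFRB and TWIST1 fell, and PRRX1, FOSL1, CD44 and SOX9 did not pass the test. That is 4 of 10 higher, beside 26.8% of all 16004 genes tested, and 2 of 10 lower, beside 28.8%. The share of members that passed in either direction was close to the 55.6% of all genes. A gene passed at an adjusted p under 0.05 in the authors' deposited DESeq2 table, and every gene said to rise or fall passed that test. Changes are log2 ratios of library means, HPLM over EMEM/F12, ± SE. In 6 of 10 members the libraries of the media did not overlap, beside 68.6% of all genes. Without EMEM/F12 library 3, edgeR's quasi-likelihood test on recovered reads gave 7 of 10 members higher in HPLM, beside 35.0% of all genes, and 2 of 10 lower, beside 35.7%. The 3 members added were PRRX1, FOSL1 and CD44.

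**Figure D1:**
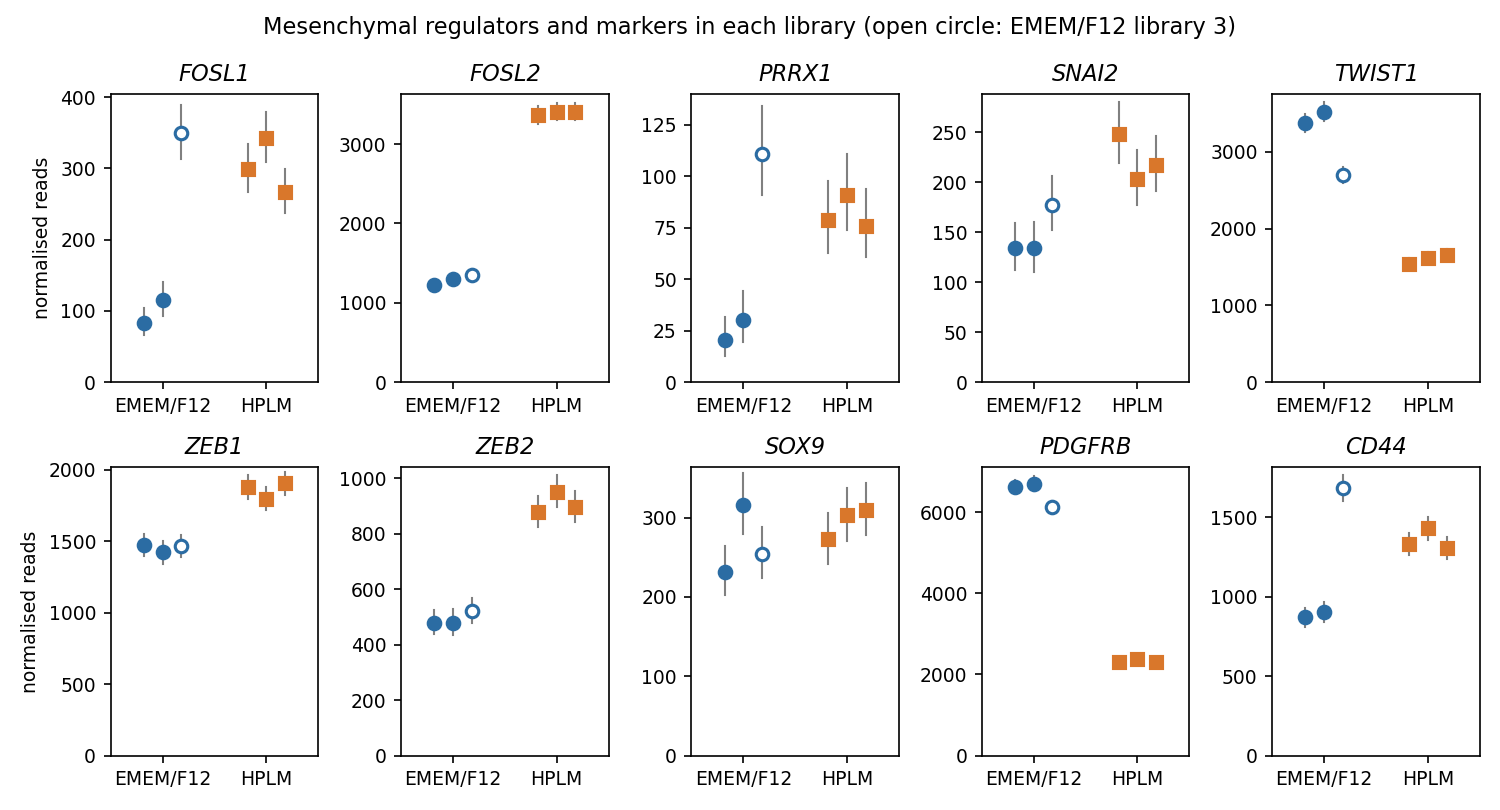
Normalised reads (y axis, from 0) of each member in the 3 EMEM/F12 libraries (circles, library 3 open) and the 3 HPLM libraries (squares), with bars for the 95% exact Poisson interval of the reads, which covers counting error only. FOSL2, ZEB1, ZEB2 and SNAI2 lie higher and PDGFRB and TWIST1 lower in every HPLM library, while the open circle lies above all HPLM libraries for PRRX1, FOSL1 and CD44.

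The FOS-related genes encode partners of JUN proteins in AP-1, and both are linked to the mesenchymal state. FOSL2 held 1218, 1296 and 1353 normalised reads in EMEM/F12 libraries 1, 2 and 3, and 3363, 3407 and 3407 in HPLM libraries 1, 2 and 3. Every HPLM library lay far above every EMEM/F12 library. FOSL2 rose from 1289 ± 67.8 to 3392 ± 25.6 (SD, n = 3 libraries), a log2 ratio of 1.40 ± 0.04, with an adjusted p of 5.76e-139 in the authors' deposited table. Its ratio was 1.43 ± 0.05 without EMEM/F12 library 3. The promoter with the AP-1 element printed above is that of FOSL2.

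FOSL1 encodes the related factor FRA1. It held 83.5 and 115 normalised reads in EMEM/F12 libraries 1 and 2, 349 in library 3, and 299, 342 and 267 in HPLM. The 2 low libraries are both from EMEM/F12, and library 3 lay above every HPLM library, so the media overlap. The log2 ratio was 0.73 ± 0.67, with an adjusted p of 0.333 in the authors' deposited table. Without library 3 it was 1.61 ± 0.25, an edgeR adjusted p of 4.49e-15, and FOSL1 was then higher in 3 of 3 HPLM libraries. With library 1 left out instead, edgeR gave 0.36 and an adjusted p of 0.353.

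PRRX1 encodes a homeodomain factor that can drive neuroblastoma cells toward the mesenchymal state. Per kb of exon it had the lowest level of the members. PRRX1 held 20.6 normalised reads in EMEM/F12 library 1 (20 reads, 95% exact Poisson interval 12.6 to 31.8), 30.2 in library 2 (26 reads, 19.7 to 44.3) and 111 in library 3 (107 reads, 90.9 to 134). The HPLM libraries held 78.9, 91.1 and 76.0, between EMEM/F12 libraries 1 and 2 on one side and library 3 on the other. The log2 ratio was 0.60 ± 0.77, with an adjusted p of 0.497 in the authors' deposited table. Without library 3 the ratio was 1.69 ± 0.28, an edgeR adjusted p of 3.20e-09. With library 1 left out instead, edgeR gave 0.19 and an adjusted p of 0.690. The difference of library 3 from libraries 1 and 2, 4.37-fold, lies outside the counting intervals.

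Among the E-box factors, ZEB2 changed most upward. It held 480.3, 480.0 and 523 normalised reads in EMEM/F12 and 879, 953 and 898 in HPLM. The media did not overlap, and library 3 was not apart. ZEB2 rose by a log2 ratio of 0.88 ± 0.05, with an adjusted p of 6.46e-25 in the authors' deposited table. ZEB1, its paralogue, held 1475, 1424 and 1466 in EMEM/F12 and 1881, 1800.2 and 1906 in HPLM. ZEB1 rose by 0.36 ± 0.03, with an adjusted p of 3.64e-09 in the authors' deposited table. Its change was the smallest among the members that passed, and again no library stood apart. SNAI2, the gene of the factor Slug, held 134, 134 and 177 normalised reads in EMEM/F12 and 248, 203 and 217 in HPLM. SNAI2 rose by 0.59 ± 0.16, with an adjusted p of 0.000692 in the authors' deposited table, and by 0.74 ± 0.09 without library 3, which was its highest EMEM/F12 library.

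TWIST1 went the other way. It held 3369, 3522 and 2700.4 normalised reads in EMEM/F12 and 1538, 1613 and 1654 in HPLM. The lowest EMEM/F12 library, library 3, was still above every HPLM library. TWIST1, which encodes a basic helix-loop-helix factor that neuroblastomas with amplified MYCN are known to express, fell by a log2 ratio of -0.997 ± 0.12, with an adjusted p of 1.62e-36 in the authors' deposited table. Library 3, high for PRRX1 and FOSL1, was thus low for TWIST1. SOX9 held 232, 316 and 254 normalised reads in EMEM/F12 and 273, 303 and 309 in HPLM. The ranges overlap, and EMEM/F12 library 2 was the highest of all. Its log2 ratio was 0.14 ± 0.15, with an adjusted p of 0.368 in the authors' deposited table. Without EMEM/F12 library 2, edgeR's quasi-likelihood test gave 0.28 and an adjusted p of 0.0273, so 1 library decided that call too.

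The surface receptors differed. PDGFRB held 6625, 6704 and 6124 normalised reads in EMEM/F12 and 2308, 2390.1 and 2299 in HPLM. Every EMEM/F12 library lay far above every HPLM library. PDGFRB fell from 6484 ± 315 to 2333 ± 50.01 (SD, n = 3 libraries), a log2 ratio of -1.48 ± 0.04, with an adjusted p of 4.80e-195 in the authors' deposited table. This was the largest change among the members. CD44 held 869 and 902 normalised reads in EMEM/F12 libraries 1 and 2, 1683 in library 3, and 1329, 1428 and 1304 in HPLM. HPLM again lay between the other EMEM/F12 libraries and library 3. The log2 ratio was 0.23 ± 0.34, with an adjusted p of 0.553 in the authors' deposited table. Without library 3 it was 0.61 ± 0.05, an edgeR adjusted p of 6.85e-15. With library 1 left out instead, edgeR gave 0.06 and an adjusted p of 0.803.

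**Figure D2:**
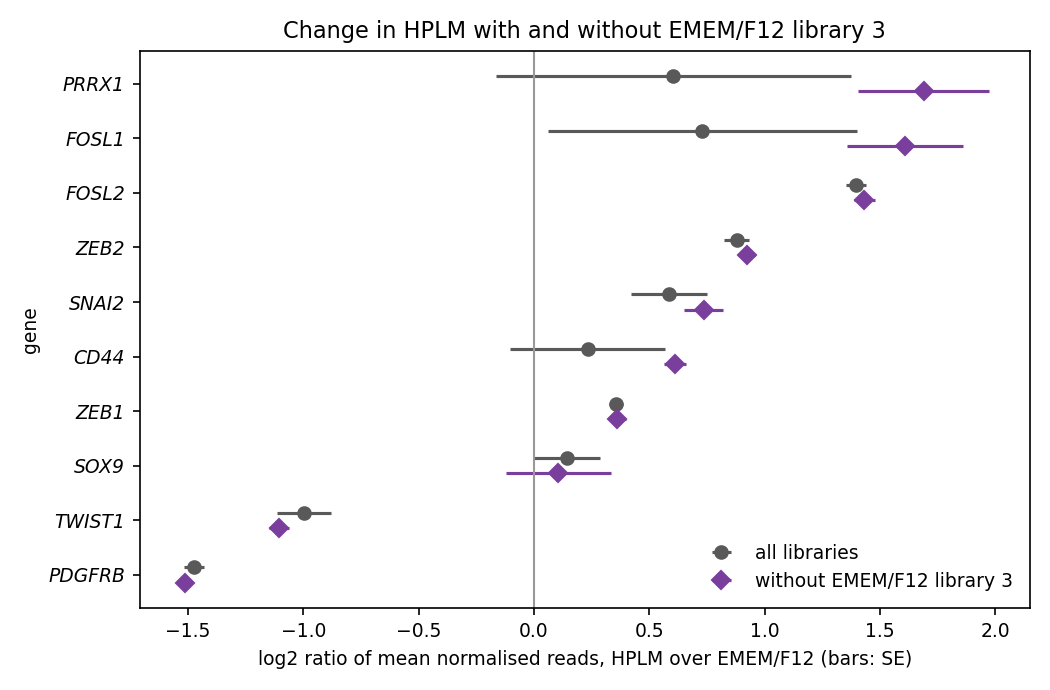
Log2 ratio of mean normalised reads, HPLM over EMEM/F12 (x axis, bars are SE), for each member with all libraries (circles) and without EMEM/F12 library 3 (diamonds). PRRX1 moved from 0.60 to 1.69, FOSL1 from 0.73 to 1.61 and CD44 from 0.23 to 0.61, while FOSL2, ZEB1 and PDGFRB moved by less than 0.05.

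Fibroblast markers were high in the same libraries as PRRX1, FOSL1 and CD44. All 10 were measured and above 0 in every library, and 1 rose, 1 fell and 8 did not pass. By edgeR without EMEM/F12 library 3, 9 were higher and 1 lower, beside 35.0% and 35.7% of all genes. Their summed level was 42099 to 44468 normalised reads in EMEM/F12 libraries 1 and 2, 100949 in library 3, and 84566 to 93102 in HPLM. Library 3 lay at least 2-fold above libraries 1 and 2 for 8 of the 10. Leaving it out therefore favours calls higher in HPLM, and the counts without it are not an independent test. COL6A3, the gene of a collagen VI chain and singled out after its values were seen, held 3812 and 4096 normalised reads in EMEM/F12 libraries 1 and 2, 13498 in library 3, and 12405, 13023 and 11894 in HPLM. THY1, a surface glycoprotein gene, was the marker that rose (0.10 ± 0.03), and LUM, the gene of the proteoglycan lumican, the one that fell (-0.98 ± 0.14). The part of these markers in the values of PRRX1, FOSL1 and CD44 was not tested. In RNA of a whole culture, more cells of a type and more RNA per cell cannot be told apart.

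Levels of different genes were compared per kb of annotated exon. In EMEM/F12 the means ran from TWIST1 (1573 normalised reads per kb) and PDGFRB (909) through FOSL2 (180.1), ZEB1 (168), CD44 (115), FOSL1 (96.8), SOX9 (67.9), SNAI2 (43.7) and ZEB2 (19.7) to PRRX1 (6.54). From FOSL2 to SOX9 each gene overlapped the next in that order over the libraries. In HPLM TWIST1 was still highest (788), FOSL2 (474) stood above PDGFRB (327), and PRRX1 was still lowest (9.94). There the overlapping neighbours were FOSL1 (161) with CD44 (135) and SOX9 (75.0) with SNAI2 (65.7). The order rests on all annotated exons, which for ZEB2 sum to 25058 bases and lower its value.

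**Figure D3:**
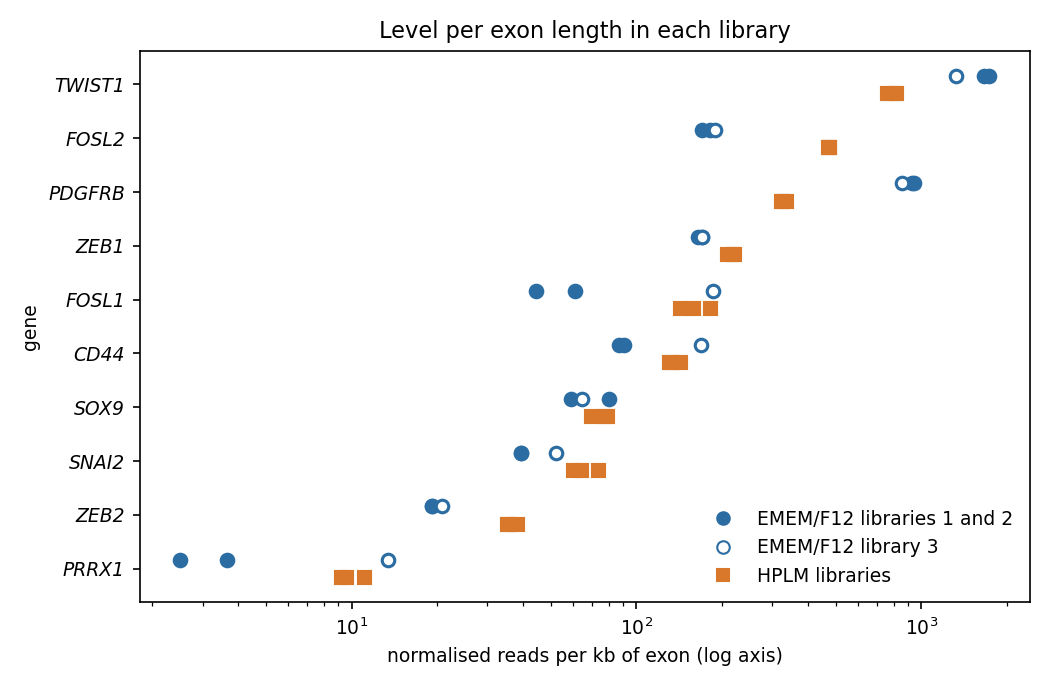
Normalised reads per kb of exon (x axis, log scale) of each member in each library (circles EMEM/F12, library 3 open, squares HPLM), ordered by the HPLM mean. TWIST1 is highest and PRRX1 lowest in both media, and the levels in HPLM span 9.94 to 788.

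On GRCh38, with GENCODE 29 annotation, the members are protein-coding genes, and each value is for a whole gene. They are PRRX1 (ENSG00000116132, chromosome 1, 170662728 to 170739419), SNAI2 (ENSG00000019549, chromosome 8, 48917604 to 48921740), TWIST1 (ENSG00000122691, chromosome 7, 19020991 to 19117672), ZEB1 (ENSG00000148516, chromosome 10, 31318495 to 31529814), ZEB2 (ENSG00000169554, chromosome 2, 144364364 to 144524583), SOX9 (ENSG00000125398, chromosome 17, 72121020 to 72126420), FOSL1 (ENSG00000175592, chromosome 11, 65892049 to 65900573), FOSL2 (ENSG00000075426, chromosome 2, 28392448 to 28417312), PDGFRB (ENSG00000113721, chromosome 5, 150113837 to 150155872) and CD44 (ENSG00000026508, chromosome 11, 35138870 to 35232402). The kit used keeps no strand, and reads in exons shared with an antisense gene are therefore uncertain. TWIST1 shares 141 exon bases with AC003986.2, ZEB1 366 with ZEB1-AS1, ZEB2 1299 with ZEB2-AS1 and CD44 84 with CD44-AS1. ZEB1-AS1 held 278, 255 and 217 normalised reads in EMEM/F12 and 369.6, 361 and 399 in HPLM, so every HPLM library was above every EMEM/F12 library, as for ZEB1. AC003986.2 stayed between 66.2 and 90.7 in all libraries.

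Among the other genes listed for the mesenchymal state, most did not pass with all libraries. Of 49 measured, 15 rose, 6 fell and 28 did not pass, with a median log2 fold change of 0.42 beside 0.01 over all genes. Over all genes tested, 26.8% rose and 28.8% fell. By edgeR without EMEM/F12 library 3 these shares were 35.0% and 35.7%. They are the background for the counts of every gene list here. The lists were written with earlier results of these data known, so their counts only describe the listed genes. IRF1, an interferon-response factor, rose by 2.09 ± 0.08, and HEY1, a Notch target, by 1.46 ± 0.03. NT5E, the gene of the surface enzyme CD73, fell by 1.22 ± 0.07 on the log2 scale, and SMAD3, a TGF-beta signal transducer, by 0.71 ± 0.14. With edgeR and without EMEM/F12 library 3, 37 were higher, 6 lower and 6 did not pass. All 15 genes of the first count were among the 37. Library 3 lay at least 2-fold above libraries 1 and 2 for 12 of the 49. For a list that is high in library 3, leaving it out favours calls higher in HPLM. The counts without it, here and for the other lists, are therefore not an independent test. The following were singled out after their values were seen. VIM, the gene of the intermediate filament vimentin, held 2039 and 2179 normalised reads in EMEM/F12 libraries 1 and 2, 4516 in library 3, and 5068, 5148 and 4725 in HPLM. YAP1, the Hippo pathway coactivator, held 113 and 112, then 315 in library 3, and 273, 320.3 and 262 in HPLM. In both genes library 3 and HPLM lay together and apart from libraries 1 and 2.

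The listed adrenergic genes were lower on balance. Of 36 measured, 8 rose, 23 fell and 5 did not pass, beside 26.8% of all genes that rose and 28.8% that fell. The median log2 fold change was -0.33. DLK1, a Notch ligand-like protein of chromaffin and sympathetic precursors, fell by 2.00 ± 0.08 on the log2 scale, and ALK, the receptor kinase mutated in some neuroblastomas, by 1.66 ± 0.25. GAP43, a growth cone protein gene, rose by 0.86 ± 0.03. By edgeR without library 3, 8 were higher and 26 lower. In library 3 no gene of this list lay 2-fold from libraries 1 and 2, and the median gene stood at 0.875 of their mean.

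**Figure D4:**
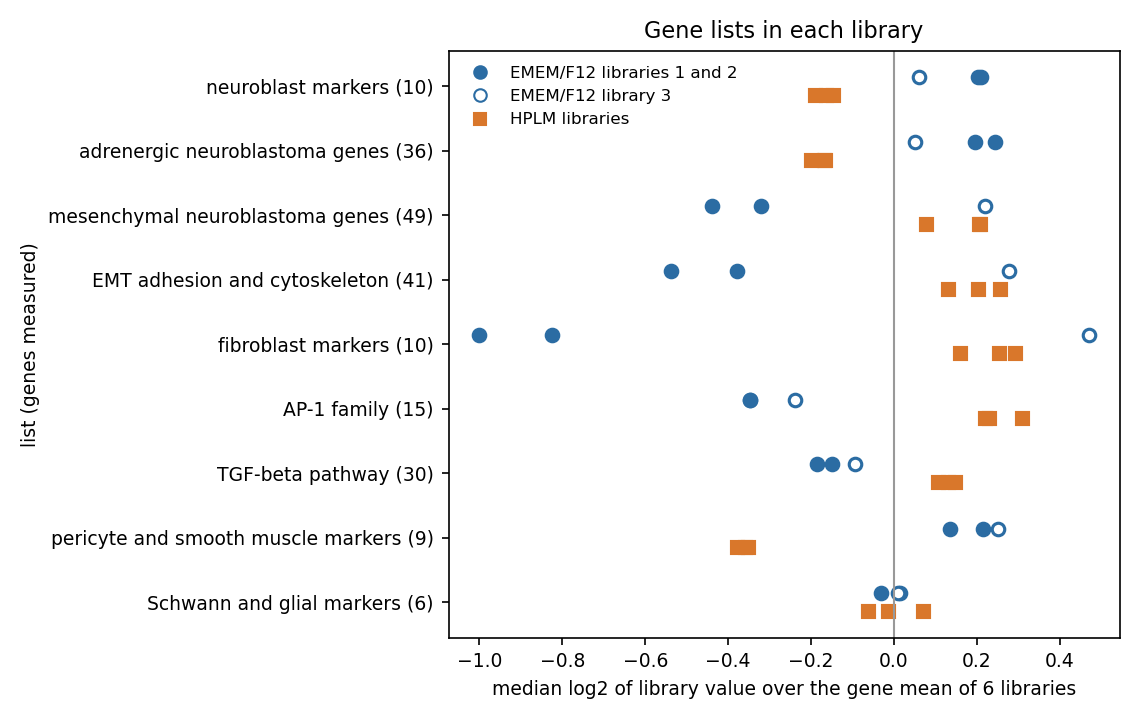
Median over the genes of a list of the log2 of each library's value over the gene's mean of the 6 libraries, with 1 added to each value (x axis), for 9 lists (y axis, with genes measured). For fibroblast markers EMEM/F12 libraries 1 and 2 lie at -1.001 and -0.83, library 3 at 0.47 and HPLM between 0.16 and 0.29. For the AP-1 family list, which leaves out FOSL1 and FOSL2, library 3, at -0.24, lies beside the other EMEM/F12 libraries.

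Relatives of the E-box, SOX and PRRX factors were mixed. Of 19 measured, 6 rose and 4 fell, beside 26.8% and 28.8% of all genes tested. Their median log2 fold change was 0.21. The neural crest homeobox genes MSX2 (1.43 ± 0.05) and MSX1 (1.37 ± 0.14) rose. SNAI1, the paralogue of SNAI2, fell from 491 ± 49.1 to 206 ± 18.4 normalised reads, a log2 ratio of -1.25 ± 0.11, and the neuronal Snail-family gene SCRT2 fell by 1.63 ± 0.09. SNAI1 and SNAI2 thus changed in opposite directions, as did TWIST1 and the ZEB genes. The other genes that fell were TCF3 (-1.20 ± 0.08), which encodes an E-protein partner of TWIST1, and SCRT1 (-0.34 ± 0.08). When library 3 was left out, edgeR gave 8 higher and 5 lower.

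Of 15 genes of the AP-1 family measured besides FOSL1 and FOSL2, 8 rose, none fell and 7 did not pass. Of all genes tested 26.8% rose and 28.8% fell. The median log2 fold change of the list was 0.44. The stress-induced repressor gene ATF3 rose by 2.01 ± 0.22 and JDP2, a JUN partner gene, by 1.51 ± 0.09. In edgeR without library 3 the counts were 10 higher and 0 lower. Library 3 lay at least 2-fold above libraries 1 and 2 for MAF and at least 2-fold below them for FOSB. It lay within 2-fold for the other genes of this list. FOSL1, which the list leaves out, lay 3.52-fold above them in library 3.

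Among genes that act with PDGFRB, 8 of 22 measured rose and 6 fell, beside 26.8% and 28.8% of all genes tested. The adaptor gene NCK1 (0.81 ± 0.08) and SOS1 (0.73 ± 0.06), which encodes a nucleotide exchange factor for RAS, rose, and the kinase gene SRC (-1.09 ± 0.10) and the phospholipase gene PLCG1 (-0.79 ± 0.07) fell. The edgeR counts without library 3 were 13 higher and 7 lower. PDGFRA, which encodes the other PDGF receptor and was singled out after its values were seen, held 97.9 and 99.96 normalised reads in EMEM/F12 libraries 1 and 2, 241 in library 3, and 197, 179 and 166 in HPLM. Unlike PDGFRB it did not pass the test, with a log2 ratio of 0.30 ± 0.47 and an adjusted p of 0.581 in the authors' deposited table. PDGFRB also marks mural cells. Of 9 pericyte and smooth muscle markers measured, 5 fell (ABCC9, CSPG4, KCNJ8, CNN1 and MCAM) and none rose (6 lower and 0 higher by edgeR without library 3), and all 9 were above 0 in every library. Their summed level was 45985 to 46456 normalised reads in EMEM/F12 libraries 1 and 2, 44889 in library 3, and 41874 to 43358 in HPLM. Most of that sum is RGS5, with means of 38659 in EMEM/F12 and 37516 in HPLM, which did not pass, while ABCC9 changed by -1.90 ± 0.06, CSPG4 by -0.77 ± 0.13 and KCNJ8 by -0.70 ± 0.04. The part of these markers in the fall of PDGFRB was not tested.

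For CD44, the list of hyaluronan and CD44-processing genes gave 3 of 19 higher and 6 lower, beside 26.8% and 28.8% of all genes. The CD44-cleaving protease gene ADAM17 (0.60 ± 0.06) and its relative ADAM10 (0.49 ± 0.02) rose. HMMR, another hyaluronan receptor gene (-1.42 ± 0.07), and VCAN, the gene of the hyaluronan-binding proteoglycan versican (-1.09 ± 0.05), fell. Left without library 3, edgeR gave 8 higher and 9 lower. MSN, the gene of the CD44-anchoring protein moesin and singled out after its values were seen, held 794 and 887 normalised reads in EMEM/F12 libraries 1 and 2, 1939 in library 3, and 1716, 1715 and 1461 in HPLM, the order seen for CD44.

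TGF-beta pathway genes were higher on balance, with 15 of 30 higher, 5 lower and a median log2 fold change of 0.26. The shares over all genes tested were 26.8% higher and 28.8% lower. The ligand gene TGFB1 rose from 1362 ± 29.2 to 3842 ± 48.2 normalised reads (1.496 ± 0.02) and the SMAD corepressor gene SKIL by 1.05 ± 0.08. The corepressor gene TGIF2 (-2.18 ± 0.08) and LTBP3 (-0.74 ± 0.06), which encodes a latent TGF-beta binding protein, fell. Here edgeR without library 3 gave 20 higher and 6 lower. Among adhesion and cytoskeleton genes of epithelial-mesenchymal transition, 12 of 41 rose, 7 fell and 22 did not pass, against the same shares of all genes. Without library 3 edgeR gave 28 higher and 7 lower, beside 35.0% and 35.7% of all genes. Library 3 lay at least 2-fold above libraries 1 and 2 for 12 of the 41. Leaving it out favours calls higher in HPLM for this list too. KRT19 (1.15 ± 0.17) and KRT8 (0.95 ± 0.06), which encode keratins of simple epithelia, rose, and the contractile genes CNN1 (-0.69 ± 0.15) and TPM1 (-0.65 ± 0.07) fell.

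Markers of neuroblasts, the labelled cell type, were all present. All 10 were measured and above 0 in every library, with a summed level of 74858 to 75189 normalised reads in EMEM/F12 libraries 1 and 2, 65824 in library 3 and 52918 to 54183 in HPLM. Of these, 2 rose and 7 fell (2 and 8 by edgeR without library 3). Several lists share genes, among them adrenergic genes with neuroblast markers and fibroblast markers with adhesion and cytoskeleton genes. Mesenchymal genes also share members with the TGF-beta pathway list. Counts of such lists are not independent of each other. Over the 11056 genes whose mean reached 100, those nearest to FOSL2 over the 6 libraries, by distance between log2 values centred on each gene's mean, were PRKAB2, an AMP-activated kinase subunit gene (distance 0.07), PTN, the gene of the growth factor pleiotrophin (0.09), and STAMBPL1, a deubiquitinase gene (0.10). Those nearest to PDGFRB were OAF (0.05), RBM38 (0.05) and DTL (0.08). With 6 libraries in 2 media this likeness rests mainly on the size of the change.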

How the data were processed

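Polyadenylated RNA was read in 3 libraries per medium. The submitters' processing notes name Trimmomatic 0.36, STAR 2.5.2b, Subread 1.5.2, DESeq2 and build GRCh38. The annotation release and the counting settings were not given in the sources used here. Library values are a normalised signal, deposited by the authors as reads over 1 factor per library: whole reads were recovered for 100% of values within 0.01 reads. The log2 fold changes, p-values and adjusted p-values are those of the authors' deposited table, per the file headers, and are the main test. No gene had a total under 61 reads, and genes below that were not analysed here. A count of 0 allows 3 reads, which is 2.68 to 3.49 normalised reads, for counting error only.

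Computed here were library means, SDs and log2 ratios with SEs propagated from the SDs (Python 3.11.15, pandas 2.3.3, scipy 1.17.1, matplotlib 3.10.9), which for the members lay within 0.0036 of the deposited log2 fold changes, and fits over all genes with edgeR 4.0.16, DESeq2 1.42.0 and limma 3.58.1 in R 4.3.3, checked on simulated data. The simulated libraries all had the same spread and none stood apart, so that check does not cover a library like EMEM/F12 library 3. DESeq2 run here called all 8905 genes of the deposited test. Spike-in lines (46, holding 0.804% to 0.887% of reads) were left out of gene counts. Of the 16005 genes, 15955 matched GENCODE release 29 by identifier. Between libraries of a medium chi-square over its degrees of freedom was 9.84 and 8.37 for pairs with EMEM/F12 library 3. It was 1.39 to 2.39 for the other pairs. All were above sampling noise, and none was counted as a copy. Members, lists and marker lists were chosen with earlier results of these data known. All members are named, and from each list up to 2 genes that rose most and 2 that fell most where their mean reached 100. A few genes this rule picks are not reported here.

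The groups are the media the labels name. Alternatives were adjusted p under 0.01 and 0.1, a log2 fold change of at least 1, a minimum mean of 10 or 100, edgeR with and without a filter on low counts, DESeq2, limma with a pseudocount of 1 or 10, spike-in scaling, recentring on the median gene, a replicate block by library number, and leaving out 1 library at a time.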

Additional observations from a re-analysis of the deposited data

How the results depend on the processing

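The members were recounted under 20 alternatives to the deposited test. Of 199 values of single members, 188 kept their direction and their side of the threshold, 4 fell below it, 7 came above it and 0 reversed. Alternatives that changed only a threshold or a minimum mean reuse the deposited log2 fold changes, so their values could not reverse. DESeq2 run on all libraries reproduced those fold changes. These alternatives therefore add little to the count of values that kept their direction. Requiring an absolute log2 fold change of at least 1 left 1 member higher (FOSL2), 1 lower (PDGFRB) and 1940 genes of either direction. Leaving out each library in turn with edgeR gave 4 to 7 members higher, 2 lower in each case and 9382 to 11302 genes called. The count of 7 came without EMEM/F12 library 3, where DESeq2 also gave 7, an alternative chosen after the data were seen. The count of 5 came without EMEM/F12 library 2, which added SOX9. PRRX1 ranged from 0.19 without EMEM/F12 library 1 to 1.70 without library 3, FOSL1 from 0.36 to 1.62 and CD44 from 0.06 to 0.61. With spike-in scaling the median gene stood at -0.05 and the same 6 members passed as in the deposited test. With the library number as a replicate block 4 members were higher, 2 lower and 9865 genes called. The labels give no replicate numbers. Deviations of same-numbered libraries from the mean of their medium had correlations of -0.08, -0.14 and -0.24. Centring on each medium ties these values to each other, so they cannot tell whether same-numbered libraries were paired. Depth limits PRRX1 most, with 20 to 107 reads per library.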

Other observations

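Markers of other cell types gave these values. Of 5 epithelial markers measured 4 rose (KRT8, KRT18, KRT19 and CLDN4), beside 26.8% of all genes tested. Of these, KRT8, KRT18 and KRT19 also belong to the adhesion and cytoskeleton list above. The summed level of the 5 was 335 to 351 normalised reads in EMEM/F12 libraries 1 and 2, 359.8 in library 3 and 676 to 733 in HPLM, so that library 3 lay with its own medium. The 6 Schwann and glial markers measured had summed levels of 3032 to 3135 in EMEM/F12 libraries 1 and 2, 3058 in library 3 and 2930 to 3016 in HPLM. Of 8 endothelial markers only TEK, an angiopoietin receptor gene, was measured, at 1.03 and 12.8 normalised reads in EMEM/F12 libraries 1 and 2, 32.1 in library 3 and 25.9 to 36.1 in HPLM. Of 8 blood markers only CD14 was measured, at 71.1 to 74.4 in EMEM/F12 libraries 1 and 2, 58.1 in library 3 and 43.8 to 66.5 in HPLM.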
